A study of Rattus norvegicus with 24 samples.

Results

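The genes described here are 98 of the 17323 genes in the count table, selected on their measured levels as genes high in the nucleus accumbens (NAc) over the ventral tegmental area (VTA). A gene was selected when its mean over the 16 NAc libraries was at least 10 CPM (the count divided by the library's total count, times 1000000) and at least 8 times its mean over 7 VTA libraries. The VTA library of rat 2 took no part in the selection. Of 102 genes that met both thresholds, 4 were left out by ID. The difference between NAc and VTA therefore defines these genes and is given as a description, with no test.

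The libraries came from 8 male F1 rats of the inbred strains F344 and BN, and each rat gave 1 library of NAc core, 1 of NAc shell and 1 of VTA, dissected by hand. Cross A (rats 1, 2, 11 and 15) was sired by F344 males on BN dams, and cross B (rats 3, 4, 13 and 16) was the reciprocal. Rats 1 to 4 had been injected with 0.4 mg/kg nicotine on each of 4 days and rats 11, 13, 15 and 16 with saline, after which all 8 rats received intravenous nicotine, self-administered or given passively (30 µg/kg per infusion, 10 infusions on each of 6 days), and tissue was taken on day 15. The labels give the regions as abbreviations, which were read with the help of the methods of the study.

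The NAc is the ventral part of the striatum, and most of its neurons are GABAergic projection neurons that receive dopamine. The core and the shell are its subdivisions, which differ in their connections. The VTA is a midbrain nucleus that holds the dopamine neurons projecting to the NAc, together with GABAergic and glutamatergic neurons. The deposited table and the reference used here did not pair the gene IDs with symbols, and names in the study's supplementary tables were not used here, so genes are given by Ensembl ID and the roles of single genes are not described.

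Total counts ran from 17563458 to 24405856 per library. The 98 genes together accounted for 14426 to 19788 CPM in the 8 core libraries (median 18465), 12969 to 17756 CPM in the 8 shell libraries (median 15354) and 998 to 1653 CPM in 7 VTA libraries (median 1280). The VTA library of rat 2 stood apart at 6380 CPM, above the other 7 VTA libraries and below all 16 NAc libraries. It shared its preparation batch with the VTA library of rat 16, which lay among the other VTA libraries at 1331 CPM. In bulk tissue, fewer cells of a type and less RNA per cell cannot be told apart.

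**Figure D1:**
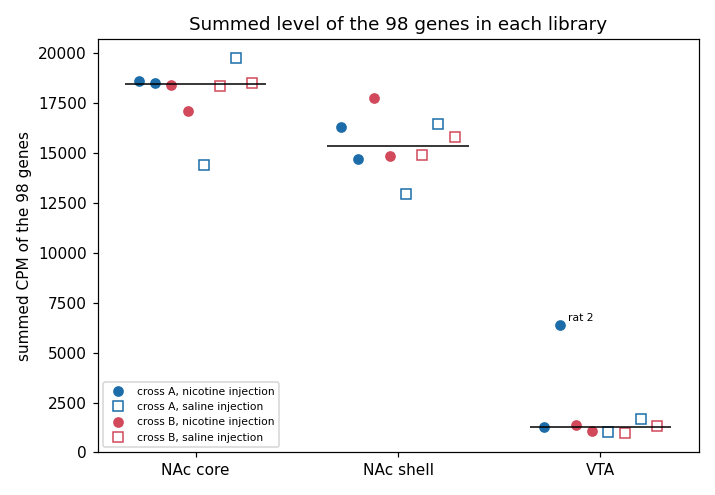
Summed CPM of the 98 genes in each of the 24 libraries, by region; points are libraries, colours are crosses, filled circles are nicotine-injected and open squares saline-injected rats, and lines are medians (in VTA, of 7 libraries without rat 2). The VTA library of rat 2 (6380 CPM) lies between the other VTA libraries (998 to 1653 CPM) and the NAc libraries (12969 CPM or more).

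Levels of the 98 genes spanned a wide range in the NAc. Mean NAc levels ran from 10.3 to 1250 CPM with a median of 73.4 CPM, and 38 genes were at 100 CPM or more, 4 of them at 1000 CPM or more. Mean levels in the 7 VTA libraries ran from 0 to 123 CPM with a median of 4.32 CPM. The median ratio of NAc to VTA was 14.5, with 41 genes at 16-fold or more and 10 at 32-fold or more. Just inside the ratio threshold lay genes at 8.04, 8.06 and 8.07-fold, and just outside it genes at 7.93, 7.86 and 7.77-fold. Just inside the threshold on the level lay genes at 10.3, 10.6 and 11.2 CPM, and just outside it genes at 9.68, 9.52 and 9.50 CPM.

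The 16 NAc libraries all lay above the 7 VTA libraries for 97 of the 98 genes, a separation that the selection itself favours and that 13.5% of the 16289 genes tested also showed. The exception was ENSRNOG00000006146, which was low in the shell as well as in the VTA. Measured separately, the core mean was at least 8 times the VTA mean for 94 genes and the shell mean for 91 genes.

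**Figure D2:**
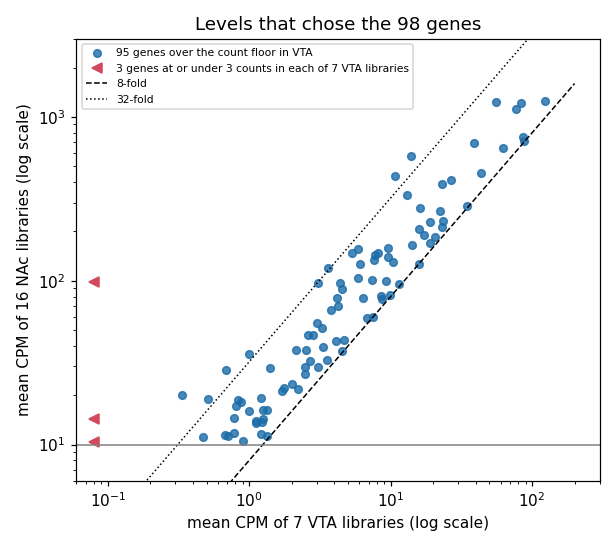
Mean CPM of the 16 NAc libraries against mean CPM of 7 VTA libraries for the 98 genes, both on log scales; the dashed and dotted lines mark 8-fold and 32-fold, and the grey line marks 10 CPM. Triangles at the left edge are the 3 genes with at most 3 counts in each of the 7 VTA libraries, and 10 genes lie beyond 32-fold.

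The gene with the highest NAc level was ENSRNOG00000006979. It was at 925 to 1574 CPM in the core (median 1410), 888 to 1288 CPM in the shell (median 1112) and 93.4 to 170 CPM in 7 VTA libraries (median 113). In the core, the library of rat 11 at 925 CPM lay below the other 7, which started at 1283 CPM. The next, ENSRNOG00000059605, was at 1191 to 1588 CPM in the core (median 1225) and 981 to 1350 CPM in the shell (median 1196). In 7 VTA libraries it ran from 15.1 to 125 CPM (median 45.3), a wider relative spread than in either part of the NAc.

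The largest contrast was that of ENSRNOG00000046177, which had 0 counts in all 7 VTA libraries and a NAc mean of 98.9 CPM. Against a floor of 3 counts per VTA library, which covers counting error only, it was at least 713-fold higher in the NAc. Its NAc level was uneven, at 7.65 to 168 CPM in the core (median 100) and 9.97 to 199 CPM in the shell (median 134). The low libraries were not those of the same rats in both parts, since the core was lowest in rat 3 at 7.65 CPM, where the shell had 136 CPM, and the shell was lowest in rat 15 at 9.97 CPM, where the core had 88.4 CPM. It was also at 64.8 CPM in the VTA library of rat 2. Salmon, the tool behind these counts, divides reads among similar transcripts by estimation, and its part in the uneven values of this gene was not tested.

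ENSRNOG00000028348 had the next largest ratio when the VTA mean was held at the floor. It was at 6.26 to 11.0 CPM in the core (median 8.68), 8.00 to 34.3 CPM in the shell (median 21.8) and 0 to 0.0969 CPM in 7 VTA libraries. In contrast to ENSRNOG00000046177, it had 0 counts in the VTA library of rat 2. Together with 1 further gene, these were the 3 that had at most 3 counts in each of the 7 VTA libraries. The other 95 genes had ratios from 8.04 to 59.9.

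Within a region, the genes varied less between rats in the NAc than in the VTA, where their counts are lower. The median coefficient of variation was 15.9% in the core, 15.3% in the shell and 36.6% over 7 VTA libraries. Of the 7 VTA libraries, that of rat 15 held the highest level of 41 genes. In the NAc, rat 11 was low in both parts. Its core library held the lowest core level of 54 genes and its shell library the lowest shell level of 41 genes.

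The levels of the 98 genes tended to move together between libraries. The values were log2 CPM on library sizes scaled by TMM normalization (pseudocount 0.5), as deviations from the mean of the core or the shell. Over the 4753 pairs of genes and the 16 NAc libraries they had a median Pearson correlation of 0.28. Of these pairs, 29.2% were above 0.5. Among all 10105 genes with a NAc mean of at least 10 CPM the median was 0.0030, and 6.48% of pairs were above 0.5. Without the libraries of rat 11, a choice made after seeing the data, the median was 0.15 for the 98 genes, with 18.8% of pairs above 0.5, against 0.0043 and 7.84% for all such genes. These are descriptions, since the points share libraries and rats and the genes share the libraries' depth and dissection.

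The selection used the mean over core and shell together, so a gene could be selected through 1 part alone and then had to differ between the parts. Of the 98 genes, 83 met both thresholds in the core alone and also in the shell alone, while 10 met them in the core and not in the shell and 5 in the shell and not in the core. The difference between core and shell was read from the 83 genes, a choice made after seeing the data. At an adjusted p under 0.05 (edgeR's quasi-likelihood test, Benjamini-Hochberg over all genes tested), 35 of the 83 genes differed between core and shell, or 42.2%, where 15.1% of all 16289 genes and 18.8% of the 10105 genes with a NAc mean of at least 10 CPM did. Of these 35 genes, 28 were higher in the core, where 7.88% of all genes were, and 7 were lower, where 7.21% of all genes were. The median log2 fold change, core over shell, was 0.20 for the 83 genes and −0.01 for all genes tested. With the rat as a replicate block, 51 of the 83 genes passed, where 16.7% of all genes did in that fit.

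Most of these differences were below 2-fold. The 28 genes higher in the core had log2 fold changes of 0.22 to 0.87, and the 7 lower in the core had −1.17 to −0.36. Core exceeded shell in all 8 rats for 22 of the 28, and shell exceeded core in all 8 rats for 5 of the 7. These genes were called on the same libraries, which favours such counts, so they add no separate evidence. The 8 core libraries all lay above the 8 shell libraries for 2 of the 83 genes, where 1.40% of all genes did so, and all below them for 2, where 2.04% of all genes did so. Core and shell of a rat were prepared in the same batch.

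Over all 98 genes, 49 were called (38 higher in the core and 11 lower), a count that includes the genes selected through 1 part and from which nothing is read. With the rat as a replicate block it was 65 (50 higher and 15 lower). All 10 genes that met the thresholds only in the core were higher there, and 4 of the 5 that met them only in the shell were lower in the core, as the selection favours.

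**Figure D3:**
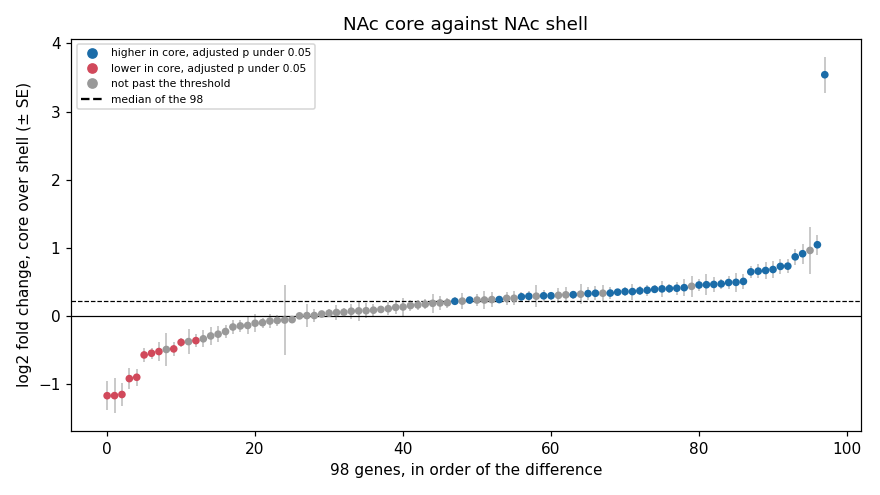
Log2 fold change of core over shell (± SE, edgeR, 16 libraries) for each of the 98 genes in order of size, including the 15 that met the thresholds in 1 part alone; blue points are the 38 genes higher and red points the 11 genes lower in the core at an adjusted p under 0.05, and grey points are the 49 that did not pass. The dashed line is the median of the 98 genes, 0.23, and ENSRNOG00000006146 is the point at 3.54.

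Among genes that met the thresholds in both parts, ENSRNOG00000012556 had the smallest p of those lower in the core. It was at 7.52 to 14.1 CPM in the core (median 12), 16.7 to 28.2 CPM in the shell (median 21.9) and 0 to 1.92 CPM in 7 VTA libraries, and no core library reached the lowest shell library. The difference, core over shell on the log2 scale, was −0.90 ± 0.12 (SE, adjusted p = 4.16e-05, edgeR).

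In the other direction the smallest p among the 83 genes were those of ENSRNOG00000008919 and ENSRNOG00000004117, which are named here after their values were seen. ENSRNOG00000008919 was at 1101 to 1577 CPM in the core (median 1526), 731 to 1175 CPM in the shell (median 994) and 66.3 to 98.8 CPM in 7 VTA libraries. The core library of rat 11, at 1101 CPM, lay below the other 7, which started at 1449 CPM. Core was higher than shell in all 8 rats, with overlap between the 2 sets of libraries, and the log2 fold change was 0.65 ± 0.08 (SE, adjusted p = 2.04e-05, edgeR). ENSRNOG00000004117 was at 37.3 to 58.0 CPM in the core (median 47.4) and 20.7 to 32.6 CPM in the shell (median 29.3), without overlap. Its log2 fold change was 0.87 ± 0.11 (SE, adjusted p = 2.41e-05, edgeR).

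The 3 other genes that the rule for named genes picked here had been selected through 1 part, and their values are given as a description, with no test. ENSRNOG00000006146 was at 18.3 to 31.3 CPM in the core (median 25.6), 0.622 to 3.85 CPM in the shell (median 2.28) and 0.483 to 3.08 CPM in 7 VTA libraries (median 1.10). Core and shell did not overlap, while shell and VTA did. Its core mean was 20.3 times the VTA mean and its shell mean 1.79 times, so it entered the selection through the core.

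ENSRNOG00000007049, the gene nearest to the 8-fold threshold, was at 62.5 to 70.4 CPM in the core (median 66.6), 50.3 to 58.1 CPM in the shell (median 53.8) and 6.02 to 9.86 CPM in 7 VTA libraries (median 6.93), with no overlap between core and shell. ENSRNOG00000012920 was at 4.71 to 9.37 CPM in the core (median 6.55) and 9.02 to 21.5 CPM in the shell (median 16.7), with the shell library of rat 2 at 9.02 CPM inside the core range. Its core mean was 5.16 times the VTA mean, the lowest such ratio of the 98 genes, and it entered the selection through the shell.

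**Figure D4:**
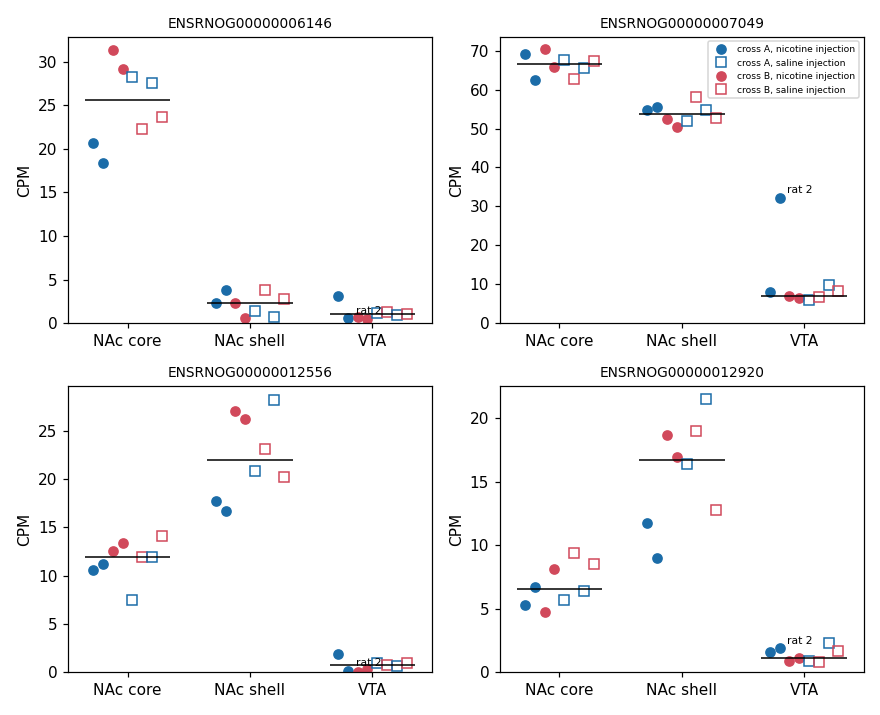
CPM of 4 genes picked by smallest p for core against shell in each of the 24 libraries, with the same symbols as in the plot of summed CPM; lines are medians, in VTA of 7 libraries without rat 2. The upper genes are higher and the lower genes lower in the core, all but ENSRNOG00000012556 were selected through 1 part, and only ENSRNOG00000006146 has shell levels (0.622 to 3.85 CPM) that overlap those in the VTA.

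The sum over the 83 genes that met the thresholds in both parts had a mean of 15447 CPM in the core (12597 to 16918 CPM, n = 8) and of 13661 CPM in the shell (11443 to 15509 CPM, n = 8). It was higher in the core than in the shell of the same rat in 8 of 8 rats, by 1.02 to 1.22 times. The ranges of the core and shell sums overlapped. Genes of high level weigh most in such a sum, so it does not describe each of the 83 genes.

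The VTA library of rat 2, which was not used to choose the genes, did not hold them at a common fraction of the NAc level. Across the 98 genes it ran from 0% to 164% of the NAc mean, with a median of 24.4% and quartiles of 12.4% and 51.9%, where the median gene was at 5.14% to 9.63% in the other 7 VTA libraries. For 78 genes it lay above all the other 7 VTA libraries, as it did for 25.5% of all genes tested. The selection asked for low levels in those other 7 libraries and not in this one, so it favours this count and nothing is read from the excess. For 14 genes it lay within their range and for 6 genes below it. At the upper end 27 genes reached 50% of the NAc mean or more, and at the lower end 20 genes stayed under 10% of it. There is 1 such library, so the difference has no replicate check.

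The genes at both ends of this order were chosen after their values were seen. ENSRNOG00000009571 was at 373 CPM in the VTA library of rat 2, above its 191 to 241 CPM in the core and 208 to 264 CPM in the shell, and it was the only gene of the 98 above its NAc range there. The other 7 VTA libraries had 11.7 to 36.3 CPM of it. ENSRNOG00000006979, the gene of highest NAc level, was at 1402 CPM in that library, or 112% of its NAc mean. By contrast ENSRNOG00000049580, at 45.3 to 95.3 CPM in the core and 44.6 to 78.7 CPM in the shell, was at 0.448 CPM in that library, below the 1.13 to 8.09 CPM of the other VTA libraries.

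**Figure D5:**
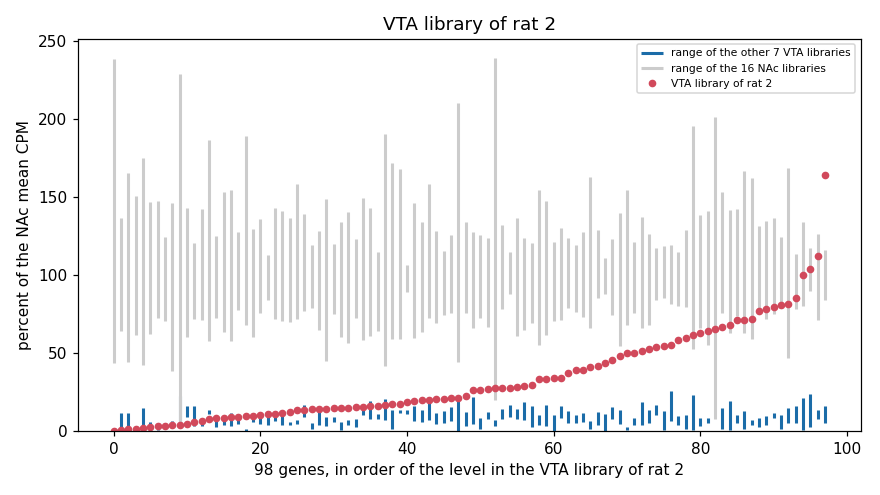
Level of each of the 98 genes in the VTA library of rat 2 (red points), with the range of the other 7 VTA libraries (blue) and of the 16 NAc libraries (grey), all as percent of the gene's NAc mean CPM, in order of the rat 2 level. The red points climb from 0% to 164% with a median of 24.4%, and 78 lie above the blue range.

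The study compares the reciprocal crosses both as its contrast of self-administration and to look for effects of the parent of origin. In the paper only cross A was inclined to self-administer nicotine, so cross and this behaviour cannot be told apart. In the core, none of the 98 genes differed between cross A and cross B at an adjusted p under 0.05 by edgeR, where 0.0184% of all genes did, and DESeq2 called 1, where it called 0.399% of all genes. At an unadjusted p under 0.05 there were 11 of the 98 genes (6 higher and 5 lower in cross A), or 11.2%, where 9.36% of all genes were at that level. Without the library of rat 11 there were 21 (21.4%, against 10.7% of all genes). For the nicotine-injected rats, NAc libraries of cross A were all of 1 preparation batch and those of cross B of another. Cross and batch cannot be told apart among them. Among the saline-injected rats alone, whose crosses shared a batch, there were 14 (14.3%, against 8.22%), in a fit of 2 libraries against 2. Fitted log2 fold changes, cross A over cross B, ran from −0.44 to 0.55 with a median of 0.02, against 0.01 for all genes. The sign of that median was not stable, as it ran from −0.04 to 0.09 with each rat left out and was −0.11 among the saline-injected rats.

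ENSRNOG00000010412 had the smallest p in the core. It was at 35, 46.7, 32.3 and 35.5 CPM in cross A (rats 1, 2, 11 and 15) and 50.7, 53.1, 55.0 and 46.1 CPM in cross B (rats 3, 4, 13 and 16). Only rat 2 of cross A lay inside the cross B range. Its log2 fold change was −0.44 ± 0.11 (SE, adjusted p = 0.411 by edgeR), and it was the gene that DESeq2 called (adjusted p = 0.0413). Over the 13 alternatives its adjusted p ran from 0.0413 to 0.705. ENSRNOG00000054809 was lower in cross A without overlap, at 15.5, 17.3, 12.7 and 17.9 CPM against 20.0, 21.9, 18.7 and 24.9 CPM, with a log2 fold change of −0.41 ± 0.13 (SE, adjusted p = 0.438, edgeR).

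In the other direction, ENSRNOG00000005404 was at 163, 157, 157 and 198 CPM in cross A and 145, 115, 139 and 148 CPM in cross B of the core, with no overlap and a log2 fold change of 0.32 ± 0.09 (SE, adjusted p = 0.411, edgeR). ENSRNOG00000024310 was at 30.1, 36.2, 36.7 and 46.8 CPM in cross A and 27.1, 25.3, 33.3 and 27.0 CPM in cross B, where rat 13 of cross B lay inside the cross A range. On the log2 scale the difference was 0.43 ± 0.12 (SE, adjusted p = 0.411, edgeR). None of these 4 differences passed the correction by edgeR, while DESeq2 called that of ENSRNOG00000010412.

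In the shell, again none of the 98 genes passed the adjusted threshold by edgeR or by DESeq2, where 0.00614% of all genes passed by edgeR. There were 3 genes at an unadjusted p under 0.05 (2 higher and 1 lower in cross A), or 3.06%, where 4.00% of all genes were. This count was 14 without the library of rat 15 (14.3%, against 5.88% of all genes). It was 13 among the saline-injected rats alone (13.3%, against 2.51%), in a fit of 2 libraries against 2. The count was 6 (6.12%) without the library of rat 4 or of rat 13, against 3.31% and 6.83% of all genes. The 98 genes tended to move together between libraries, so nothing is read from these shifts. The median log2 fold change was −0.05 for the 98 genes and 0.00 for all genes, and the former ran from −0.09 to 0.04 with each rat left out. None of the 3 was among the 11 genes of the core. A cross by region interaction was not called for any of the 98 by edgeR or by DESeq2 (0% of all genes by edgeR), and 1 gene had an unadjusted p under 0.05, where 2.19% of all genes did. That count was 0 without rat 1, 4, 15 or 16 and 2 (2.04%) without rat 2 or 13, where 2.12% to 3.33% of all genes were at that level in these 6 fits.

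The smallest p in the shell was that of ENSRNOG00000015719, at 22.8, 24.1, 16.8 and 19.5 CPM in cross A and 13.7, 14.0, 17.3 and 17.7 CPM in cross B. The library of rat 11 in cross A lay inside the cross B range. Its log2 fold change was 0.41 ± 0.14 (SE, adjusted p = 0.995, edgeR). ENSRNOG00000005457 was lower in cross A, at 187, 170, 156 and 212 CPM against 277, 213, 213 and 209 CPM, with a log2 fold change of −0.33 ± 0.11 (SE, adjusted p = 0.995, edgeR). The groups overlapped through rat 15 of cross A and rat 16 of cross B. The gene of smallest p for the interaction was ENSRNOG00000017828, at 25.7, 24.4, 16.0 and 31.9 CPM in cross A and 20.9, 12, 18.6 and 16.4 CPM in cross B of the core. In the shell it was at 17.3, 17.8, 12.5 and 20.9 CPM in cross A and 20.1, 17.5, 14.3 and 19.9 CPM in cross B, where the crosses overlapped as they did in the core. The interaction term was 0.60 ± 0.28 on the log2 scale (SE, adjusted p = 1.00, edgeR).

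The comparison of nicotine with saline injection asks whether the early injections left a difference after self-administration, and here injection cannot be told apart from the preparation batch. No gene of the 98 passed the adjusted threshold in the core or in the shell by edgeR or by DESeq2, and by edgeR 0% of all genes passed in either. At an unadjusted p under 0.05 there were 6 genes in the core (4 higher and 2 lower after nicotine), or 6.12%, where 6.39% of all genes were. There were 4 in the shell (all higher after nicotine), or 4.08%, where 2.95% of all genes were. No gene was at that level in both. The core count was 2 (2.04%) without rat 1, against 4.24% of all genes, and 10 (10.2%) without rat 4, 15 or 16, against 4.84%, 6.35% and 7.40% of all genes. The shell count was 2 (2.04%) without rat 3, 10 (10.2%) without rat 4 and 13 (13.3%) without rat 15, against 2.71%, 3.63% and 2.82% of all genes. Median log2 fold changes, nicotine over saline, were 0.03 in the core and 0.06 in the shell, against 0.00 for all genes in both. With each rat left out they ran from −0.05 to 0.10 in the core and from 0.00 to 0.14 in the shell.

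In the core, ENSRNOG00000023389 was at 86.8, 77.1, 68.2 and 80.1 CPM in the nicotine-injected rats 1, 2, 3 and 4, and at 64.9, 63.8, 65.1 and 68.2 CPM in the saline-injected rats 11, 13, 15 and 16. Rat 3 and rat 16 had nearly equal levels, and the others were higher after nicotine. The fitted log2 fold change was 0.28 ± 0.08 (SE, adjusted p = 0.766, edgeR). ENSRNOG00000027463 was at 13.0, 17.4, 18.7 and 14.0 CPM after nicotine and 18.5, 20.9, 23.7 and 23.0 CPM after saline, with a log2 fold change of −0.43 ± 0.13 (SE, adjusted p = 0.766, edgeR). Only rats 3 and 11 broke the order of the groups.

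In the shell, ENSRNOG00000049407 was at 13.2, 16.1, 14.0 and 12.2 CPM after nicotine and 8.83, 8.21, 11.7 and 12.2 CPM after saline, with a log2 fold change of 0.44 ± 0.15 (SE, adjusted p = 0.999, edgeR). Rat 4 and rat 16 had nearly equal levels at the border of the groups. The uneven gene ENSRNOG00000046177 had the largest fitted difference, at 199, 147, 136 and 141 CPM after nicotine and 11.8, 131, 9.97 and 43.3 CPM after saline. The groups did not overlap, but the saline-injected rats were spread widely. Its log2 fold change was 1.65 ± 0.62 (SE, adjusted p = 0.999, edgeR), and in the core its lowest library was that of a nicotine-injected rat, rat 3.

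The remaining genes of small p in these comparisons had adjusted p-values of 0.766 or more by edgeR. After nicotine in the core, ENSRNOG00000005284 had a log2 fold change of 0.26 ± 0.10 (SE) and ENSRNOG00000011310 of −0.31 ± 0.13. For cross A over cross B in the shell, ENSRNOG00000028041 had 0.51 ± 0.23 and ENSRNOG00000021091 had −0.20 ± 0.10, the latter at an unadjusted p above 0.05. The 2 genes of smallest p among those with negative values after nicotine in the shell, ENSRNOG00000054809 at −0.32 ± 0.18 and ENSRNOG00000062261 at −0.24 ± 0.15, were also above an unadjusted p of 0.05.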

How the data were processed

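RNA was sequenced from the NAc core, NAc shell and VTA of 8 rats (24 libraries). Per the study's methods, the authors trimmed reads with fastp 0.20.0, quantified them with Salmon 0.12.0 on the rat genome Rnor 6 and summed them to genes with tximport. They deposited estimated counts per gene, as whole numbers, without normalization. Salmon divides reads among similar transcripts by estimation, so counts of near-identical genes are uncertain. The groups and the rat numbers came from the sample labels.

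CPM and the selection were computed from these estimated counts (Python 3.11.15, pandas 2.3.3). Genes with a median-ratio normalized count over 10 in at least 3 of 24 libraries were tested. This kept 16289 genes (99.98% of counts), all 98 genes described here among them, and left out 1034. Tests were edgeR 4.0.16 quasi-likelihood F tests (R 4.3.3) with TMM normalization and 1 term (region, cross or injection, and both with their product for the interaction). They were two-sided, with Benjamini-Hochberg adjustment over all genes tested. The SE of a log2 fold change is its size divided by the root of F. The scripts were tested on simulated counts. Alternatives were DESeq2 1.42.0, RLE factors, no filter, covariates, the rat as replicate block and each rat left out.

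Core and shell libraries with 1 number come from the same rat, which pairs them. Their deviations from the mean of the same region and cross were correlated at −0.11 to 0.12 over all genes. Over the 98 genes these correlations ran from −0.40 to 0.58. No 2 libraries of a group agreed within sampling noise in 36 pairs. The genes and lists were chosen with earlier results of these data known. Genes named by ID were, at most 2 in each direction, those of highest level, largest ratio and smallest p in each comparison. The planned gene lists, cell type markers and promoter motifs need symbols and were not run, since 0 of the IDs matched the reference.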

Additional observations from a re-analysis of the deposited data

Results flagged for a closer look

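A library was looked at again when the gap between it and its nearest neighbour took up more of the range of the 8 libraries of its region than Dixon's 95% critical value allows. Among 87 sets of 8 libraries (28 genes named in the tests or the descriptions and the sum over the 98 genes, in 3 regions) 22 held such a library, where chance flags about 1 in 20 independent sets. That rate is no measure for the VTA sets, since the selection asked for low levels in the other 7 VTA libraries and left out rat 2, and ENSRNOG00000009571 and ENSRNOG00000006979 were named for their levels in that library. The sets also share libraries.

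The VTA library of rat 2 accounted for most of them. Its summed level of the 98 genes was 6380 CPM, against 998 to 1653 CPM in the other 7. It was the high library of 15 single genes. In that library ENSRNOG00000006979 was at 1402 CPM, ENSRNOG00000059605 at 734 CPM, ENSRNOG00000009571 at 373 CPM, ENSRNOG00000005284 at 103 CPM, ENSRNOG00000005404 at 99.0 CPM, ENSRNOG00000001374 at 70.5 CPM and ENSRNOG00000046177 at 64.8 CPM. ENSRNOG00000005457 was at 47.0 CPM, ENSRNOG00000007049 at 32.1 CPM, ENSRNOG00000028041 at 18.9 CPM, ENSRNOG00000017828 at 13.6 CPM, ENSRNOG00000004117 at 12.4 CPM, ENSRNOG00000015719 at 10.0 CPM, ENSRNOG00000062261 at 7.73 CPM and ENSRNOG00000027463 at 7.06 CPM.

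In the core, rat 11 was low for ENSRNOG00000006979 (925 CPM, against 1283 CPM or more in the others), for ENSRNOG00000008919 (1101 CPM, against 1449 CPM or more) and for ENSRNOG00000049580 (45.3 CPM, against 71.7 CPM or more). In the shell, rat 3 was high for ENSRNOG00000005457 at 277 CPM, against at most 213 CPM in the others. In the VTA, rat 1 was high for ENSRNOG00000006146 at 3.08 CPM and rat 13 for ENSRNOG00000028348 at 0.0969 CPM, the latter from at most 3 counts.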

How the results depend on the processing

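The number of selected genes was 224 at a 4-fold ratio, 41 at 16-fold and 65 when the VTA library of rat 2 entered the VTA mean, against 98 as selected, and 94 to 104 with each rat left out. For core against shell, 28 to 37 of the 83 genes that met the thresholds in both parts were called with each rat left out (11.9% to 15.4% of all genes), 40 by DESeq2 (17.3%) and 51 with the rat as replicate block (16.7%), against 35. Over all 98 genes these counts were 42 to 50, 54 and 65, against 49. With the replicate block the interaction of cross and region called 0 genes; no block was fitted for cross or injection. DESeq2 called 1 gene, ENSRNOG00000010412, for the crosses in the core; no other alternative called a gene for cross, injection or interaction, with 0 to 0 called over the rats left out. Each gene named by smallest p, ENSRNOG00000008919 (log2 0.62 to 0.68) and ENSRNOG00000004117 (0.82 to 0.92) included, kept its direction in its own comparison under the alternatives run. The main cross and injection tests set 4 libraries against 4, and the cross tests among saline-injected rats set 2 against 2. Among genes of few counts small differences may go undetected at this depth.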
